A study of Mus musculus with 23 samples.

Results

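The LSD1-CoREST complex was followed through 9 of its subunit genes in mouse hippocampus: Kdm1a, Rcor1, Rcor2, Rcor3, Hdac1, Hdac2, Phf21a, Hmg20b and Gse1. The genes were taken by symbol, and each matched 1 Ensembl identifier among the 54232 in every deposited table. The series held 23 libraries of poly(A)-selected RNA from C57BL/6 hippocampus in 7 groups. Of these, 14 libraries came from mice aged 9 months: 4 of PS19 mice with 1 Lsd1 copy lost (PS19_Lsd1het, titled PS19;Lsd1Δ/+), 4 of PS19 mice with both copies (PS19), 2 of mice with the Lsd1 deletion alone (Lsd1het, titled Lsd1Δ/+) and 4 of wild type (WT). The other 9 came from mice aged 11 months whose hippocampus had been injected with an adeno-associated virus (AAV) made to act in neurons: 3 of PS19 mice given the LSD1 virus (PS19_rescue), 3 of PS19 mice given the HA control virus (PS19_HA) and 3 of wild type given HA (WT_HA). All 3 of these groups carried both Lsd1 copies. PS19 is a mouse line with a human tau transgene carrying the P301S mutation under the mouse prion promoter, so the transgene is not limited to the hippocampus. The Lsd1 deletion is given as a genotype of the animal, while the virus is limited to the injected hippocampus and made to act in neurons. The labels do not say which Lsd1 exons are deleted, which LSD1 cDNA the virus holds, or that libraries are separate animals, so p-values measure the spread between these samples only.

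LSD1, the product of Kdm1a, removes methyl groups from lysine 4 of histone H3, a mark of active promoters and enhancers. It does not work on nucleosomes by itself: a CoREST scaffold (RCOR1, RCOR2 or RCOR3) holds it together with a deacetylase, HDAC1 or HDAC2, and brings both to chromatin. PHF21A (BHC80) is a reader of unmethylated lysine 4, HMG20B (BRAF35) is a DNA-binding HMG-box protein, and GSE1 is a coiled-coil protein that copurifies with the complex from human cells. Outside neurons, the transcription factor REST recruits the complex to neuronal genes. The study asked how the tau transgene, the loss of 1 Lsd1 copy and added LSD1 act together in the hippocampus.

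On GRCm38, Kdm1a (ENSMUSG00000036940) lies at chr4:136550540-136602723 on the minus strand, with 5179 bases of exon. The scaffold genes are Rcor1 (ENSMUSG00000037896, chr12:111039351-111115901, plus strand), Rcor2 (ENSMUSG00000024968, chr19:7267325-7275225, plus) and Rcor3 (ENSMUSG00000037395, chr1:192098546-192138062, minus). The deacetylase genes are Hdac1 (ENSMUSG00000028800, chr4:129516104-129542713, minus) and Hdac2 (ENSMUSG00000019777, chr10:36974544-37001889, plus). The others are Phf21a (ENSMUSG00000058318, chr2:92093117-92364666, plus), Hmg20b (ENSMUSG00000020232, chr10:81346048-81350480, minus) and Gse1 (ENSMUSG00000031822, chr8:120228456-120581390, plus). All 9 passed the filter on low counts.

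Gene counts see neither isoforms nor the origin of a Kdm1a read, and the sequences show why. In GENCODE M21 (GRCm38) Kdm1a has 9 transcripts, and 1 of them, Kdm1a-208, holds the 12-nt microexon 8a (chr4:136563438-136563449, minus strand), which is known to be spliced in only in neural tissue. The junction is shown with 30 bases on each side, from the transcript with the exon (in capitals) and from Kdm1a-202, which skips it.
Kdm1a-208 with exon 8a: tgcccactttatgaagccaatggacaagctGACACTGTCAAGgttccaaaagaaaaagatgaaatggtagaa
Kdm1a-202 without exon 8a: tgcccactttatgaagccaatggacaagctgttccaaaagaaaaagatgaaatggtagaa
Kdm1a-202 is in turn the 1 transcript of the 9 with the 60-nt exon 2a (chr4:136582040-136582099, minus strand), shown in capitals with 30 bases on each side.
Kdm1a-202 exon 2a: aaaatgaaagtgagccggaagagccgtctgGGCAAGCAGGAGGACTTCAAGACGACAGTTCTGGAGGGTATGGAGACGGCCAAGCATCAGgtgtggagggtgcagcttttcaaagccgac
A read over the shared bases was counted to Kdm1a whatever its isoform, and a read of a viral LSD1 transcript would be counted there too wherever its sequence matches the mouse coding sequence.

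The paralogues in the list were told apart by sequence. The coding sequences of Hdac1 and Hdac2 shared 75.8% of 1443 aligned bases, and their longest exact run was 17 nt (capitals, with 15 bases on each side), inside an exon of each gene at chr4:129528950-129528966 (minus strand) and chr10:36986385-36986401 (plus strand).
Hdac1: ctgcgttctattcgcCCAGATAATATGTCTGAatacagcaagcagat
Hdac2: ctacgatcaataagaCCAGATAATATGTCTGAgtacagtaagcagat
Rcor1 and Rcor3 shared 70.6% of 1304 aligned coding bases and the longest run among the 3 scaffolds, 23 nt, at chr12:111097569-111097591 (plus strand) and chr1:192125891-192125913 (minus strand).
Rcor1: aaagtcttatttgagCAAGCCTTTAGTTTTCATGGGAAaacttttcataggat
Rcor3: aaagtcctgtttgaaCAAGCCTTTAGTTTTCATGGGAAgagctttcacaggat
The longest runs were 18 nt for Rcor1 with Rcor2 and 16 nt for Rcor2 with Rcor3. Untranslated exon sequence was not compared. Read length and the handling of reads with several alignments were not known here, so how well the paralogues' reads separate was not tested.

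Counted reads ran from 15451494 to 24644977 per library, and no member had fewer than 53 reads in any library. Mitochondrial reads made up 16.1% of PS19 replicate 3, 33.9% of WT replicate 3 and 16.2% of WT_HA replicate 2; the other libraries had 2.86% to 6.04%. The 9-month libraries fell into 2 sets, replicates 1 and 2 and replicates 3 and 4, split by a leading principal component with 56.4% of the variance. Lsd1het has replicates 1 and 2 only, so its comparison with WT sets 2 libraries of the first set against 4 of both sets. Hippocampal neuron genes were present in every library (Prox1, the marker of dentate granule neurons, at 51.0 CPM or more), with a summed choroid plexus marker level that ran from 37.2 to 3553.3 CPM over single libraries. Prnp, whose promoter drives the transgene, had 1071.4 CPM or more in every PS19-carrying library and 922.1 CPM or less in the others. By Xist and Y-linked counts the 9-month libraries were male-type and the 11-month groups mixed.

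Levels are CPM, gene counts relative to library size after TMM scaling, which corrects for library composition. Kdm1a had 35.5, 35.2, 56.5 and 45.0 CPM in the PS19_Lsd1het libraries, against 48.6, 51.0, 53.7 and 61.6 CPM in PS19. It had 35.4 and 36.4 CPM in Lsd1het, against 52.1, 51.4, 61.3 and 58.3 CPM in WT. PS19_Lsd1het replicate 3 lay within the range of PS19 and WT, and the other 5 libraries of mice with 1 Lsd1 copy lay below all 8 libraries with both copies. That separation rests on TMM scaling, whose factor was 0.65 for WT replicate 3. Before scaling, WT replicate 3 had 627 Kdm1a reads of 15743147, against 735 of 15597799 in PS19_Lsd1het replicate 4. Group means were 43.1 ± 10.05 CPM in PS19_Lsd1het and 53.7 ± 5.62 CPM in PS19 (n = 4 libraries each, ± SD). They were 35.9 ± 0.748 CPM in Lsd1het (SD, n = 2) and 55.8 ± 4.83 CPM in WT (SD, n = 4). The mean was thus 80.2% of PS19 in PS19_Lsd1het and 64.4% of WT in Lsd1het. In bulk tissue, fewer cells that express a gene and less RNA per cell cannot be told apart.

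The loss was tested on log2 CPM within PS19 and within non-PS19 mice together. Kdm1a was lower by a mean log2 difference of -0.49 (0.714-fold) in the 6 heterozygous libraries than in the 8 with both copies (exact stratified permutation test, two-sided, p = 0.00476, adjusted p = 0.0381 over 8 Kdm1a tests). Without TMM scaling the difference was -0.37 (exact permutation p = 0.0219), and that of PS19_Lsd1het from WT was -0.16, in place of -0.40 with it. With the library set as a further stratum, a test added after seeing the data, the difference was -0.40 (exact permutation p = 0.0185, unadjusted, smallest possible 0.00926). Over all genes the same contrast did not pass: edgeR's quasi-likelihood test gave -0.48 (SE 0.14, 95% interval -0.79 to -0.17, unadjusted p = 0.0056) with an adjusted p of 0.826, and -0.41 with the replicate block (edgeR adjusted p = 0.991). The single comparisons did not pass either, at -0.37 (SE 0.18, adjusted p = 0.797 by edgeR) for PS19_Lsd1het against WT, -0.32 (SE 0.18, adjusted p = 1 by edgeR) for PS19_Lsd1het against PS19 and -0.64 (SE 0.23, adjusted p = 0.805 by edgeR) for Lsd1het against WT. The 2 Lsd1 effects did not differ beyond their error (interaction 0.32, 95% interval -0.30 to 0.93).

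The loss was also read within each library set. In replicates 1 and 2, Kdm1a averaged 35.6 ± 0.541 CPM in the 4 heterozygous libraries and 50.8 ± 1.49 CPM in the 4 with both copies, which is 70.2% (exact permutation p = 0.0286, the smallest that 4 against 4 allows). In replicates 3 and 4 it averaged 50.8 ± 8.09 CPM in 2 heterozygous libraries and 58.7 ± 3.64 CPM in 4 with both copies, which is 86.4% (exact permutation p = 0.133, smallest possible 0.0667). The groups did not overlap in the first set and overlapped in the second. Both heterozygous libraries of the second set are PS19_Lsd1het, and the higher of them, replicate 3, had 56.5 CPM. Whether the sets differ in the size of the loss was not tested.

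Kdm1a did not differ between PS19 and WT beyond replicate error. The log2 difference was -0.05 (95% interval -0.44 to 0.33, edgeR adjusted p = 1), and without TMM scaling its sign turned, to 0.09. At 11 months it had 63.1, 61.6 and 60.5 CPM in PS19_HA, against 66.2, 60.5 and 64.3 CPM in WT_HA, with overlapping groups. The difference of -0.04 had an SE of 0.54 in the shared 11-month fit, whose spread for Kdm1a includes the LSD1-virus libraries, and an SE of 0.10 in a fit of these 2 groups alone. Without TMM scaling it was 0.07.

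**Figure D1:**
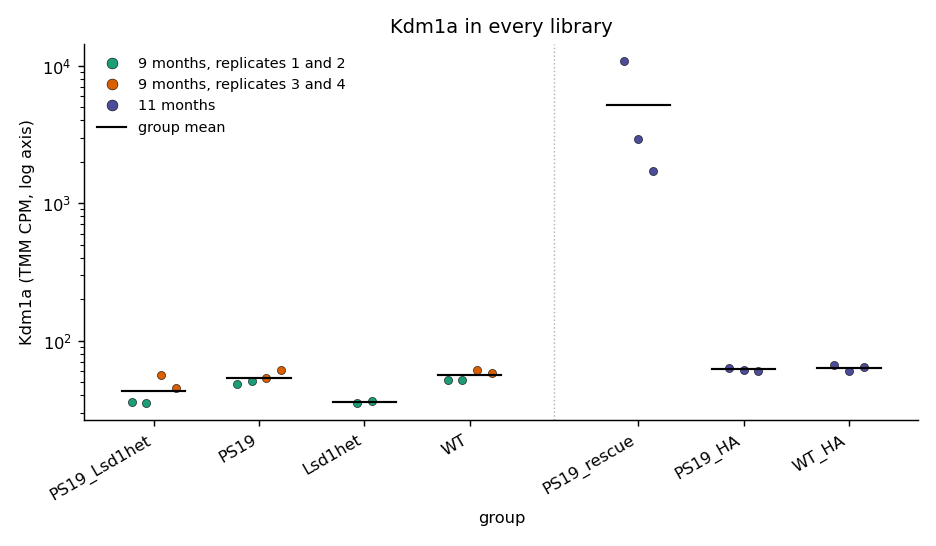
Kdm1a in every library, as TMM-scaled CPM on a log axis, by group; green and orange points are replicates 1 and 2 and replicates 3 and 4 at 9 months, blue points the 11-month libraries, and black bars group means. The green heterozygous libraries lie between 35.2 and 36.4 CPM, below all green libraries with both copies, and the 3 PS19_rescue libraries lie between 1725.4 and 10799.3 CPM.

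The Kdm1a count was far higher in PS19_rescue, beyond any difference between genotypes. Kdm1a had 10799.3, 2951.5 and 1725.4 CPM in PS19_rescue, and every one of these values was above the 60.5 to 66.2 CPM of PS19_HA and WT_HA. The mean was 83.6 times that of PS19_HA and 81.0 times that of WT_HA, and the lowest PS19_rescue library was 27.3 times the highest PS19_HA library. Kdm1a alone took 1.11%, 0.307% and 0.188% of all counted reads in the 3 PS19_rescue libraries, against 0.00639% to 0.00661% in PS19_HA. The dose was uneven: the highest PS19_rescue library held 6.26 times the Kdm1a of the lowest. The log2 difference was 6.38 against PS19_HA (SE 0.68, 95% interval 4.86 to 7.91, adjusted p = 0.0924 by edgeR, 1.28e-18 by DESeq2) and 6.34 against WT_HA (SE 0.67, adjusted p = 0.0315 by edgeR, 3.2e-18 by DESeq2). Blocking on replicate number gave an adjusted p of 0.072 by edgeR against WT_HA. Without PS19_rescue replicate 1, the library with the highest count, the Kdm1a log2 difference from PS19_HA was 5.24 (adjusted p = 0.000202 by edgeR). With 3 libraries against 3, an exact permutation test cannot go below p = 0.1, which both comparisons reached. This difference checks the virus label and says nothing of protein.

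Kdm1a was the only member called in any of 10 comparisons. At an adjusted p under 0.05, edgeR called 0 of the 9 members in 9 comparisons and 1 against WT_HA in PS19_rescue. Among members, the unadjusted edgeR p was under 0.05 for Kdm1a alone, in Lsd1het against WT, in the mean Lsd1 effect and in both PS19_rescue comparisons. DESeq2 called Kdm1a in both PS19_rescue comparisons and no other member in any comparison. These counts stand against low shares over all genes. edgeR called 0.00492% of genes in PS19 against WT, 0.00492% in PS19_Lsd1het against WT, 0.0155% in PS19_HA against WT_HA and 0.0207% in PS19_rescue against WT_HA. It called 0% in the other 6 comparisons, in which 127 to 404 genes had an unadjusted p under 0.05. DESeq2 called 0.938% in PS19 against WT, 0.546% in PS19_Lsd1het against WT, 0.00496% in PS19_Lsd1het against PS19, 0.00496% in Lsd1het against WT, 0.0149% for the mean Lsd1 effect and 0.00993% for the interaction. At 11 months DESeq2 called 0.635% in PS19_HA against WT_HA, 0.0156% in PS19_rescue against PS19_HA and 0.0882% in PS19_rescue against WT_HA, and it called 0% for the difference between the tau effects of the cohorts. A member's lack of a call is therefore the usual result in these comparisons, and the intervals of the differences say more than the calls.

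The scaffolds come first among the partners. Rcor1, the main CoREST scaffold, had 25.2, 32.7, 25.5 and 30.7 CPM in PS19_Lsd1het and 24.1, 34.2, 23.3 and 30.7 CPM in PS19. It had 27.5 and 36.8 CPM in Lsd1het and 27.3, 33.8, 22.4 and 32.0 CPM in WT. Apart from Lsd1het replicate 2, the highest of the cohort, every heterozygous library lay within the range of the libraries with both copies. Rcor1 had the narrowest range of group means among the members after Phf21a, at 1.21-fold. Its mean Lsd1 heterozygosity effect was 0.09 (95% interval -0.25 to 0.43). With the LSD1 virus, Rcor1 had 35.5, 35.0 and 31.3 CPM in PS19_rescue, against 36.3, 32.9 and 27.1 CPM in PS19_HA. The groups overlapped, and the difference of 0.08 had a 95% interval from -0.21 to 0.37, so a rise of Rcor1 by more than 0.37 on the log2 scale lay outside that interval while Kdm1a stood 83.6 times higher.

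Rcor2, a second scaffold, was the least counted member, at a median of 8.95 CPM over the 20 libraries without the LSD1 virus. It had 16.4 and 16.2 CPM in Lsd1het, against 13.9, 13.7, 5.18 and 11.9 CPM in WT. Both Lsd1het values were above every WT value, and the log2 difference was 0.54 with a 95% interval from -0.41 to 1.48. Both are of replicates 1 and 2, where WT had the 13.9 and 13.7 CPM. At 9 months the log2 difference of replicates 3 and 4 from 1 and 2 was -0.56 for Rcor2. Its part in the Lsd1het difference was not tested. In PS19_Lsd1het it had 16.0, 5.68, 9.61 and 8.58 CPM, against 12.9, 14.3, 6.66 and 9.06 CPM in PS19, with overlapping groups and a difference of -0.11. Groups that did not overlap were common in the first of these comparisons: 10.2% of genes averaging 1 CPM or more had none between Lsd1het and WT, and 2 of the 9 members, Kdm1a (lower) and Rcor2 (higher), were among them. In PS19_rescue Rcor2 had 9.40, 10.2 and 6.92 CPM and in PS19_HA 8.66, 8.50 and 8.85 CPM, again overlapping.

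Rcor3 ranged from 21.8 to 37.6 CPM over all 23 libraries. Its mean Lsd1 effect was -0.09 (95% interval -0.40 to 0.21) and its difference between PS19_rescue and PS19_HA was 0.07 (95% interval -0.27 to 0.42). Of the summed scaffold level per kilobase of exon, Rcor1 held 50.1% ± 9.71 in PS19_Lsd1het, 48.3% ± 3.85 in PS19 and 47.0% ± 3.09 in WT (n = 4 libraries each, ± SD). Rcor2 held 41.0% ± 4.24 in Lsd1het (SD, n = 2) and 31.9% ± 8.34 in WT (SD, n = 4). Here too the Lsd1het libraries are of replicates 1 and 2 only, while the WT libraries are of both sets. At 11 months Rcor1 held 54.2% ± 3.01 in PS19_rescue, 53.3% ± 2.87 in PS19_HA and 55.0% ± 4.85 in WT_HA (SD, n = 3 each). The Rcor1 share thus differed between the virus groups by less than its SD within them. These shares rest on the summed exon length, which for Rcor3 is 13622 bases, while its representative transcript is 3791 nt long. Without division by length, the ratio of Rcor3 to Rcor1 was 0.792 to 1.07 over group means, in place of 0.331 to 0.448, so the order of the scaffolds depends on the length used.

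The ratio of Kdm1a to the summed scaffolds, both per kilobase of exon, does not depend on how libraries are scaled. It was 0.579 and 0.52 in Lsd1het, against 0.892, 0.825, 1.45 and 0.956 in WT. The groups did not overlap, and the means were 0.549 in Lsd1het and 1.03 in WT. The same means without division by length were 0.490 in Lsd1het and 0.805 in WT. Both Lsd1het libraries are of replicates 1 and 2, where WT had the 0.892 and 0.825. The higher WT values, 1.45 and 0.956, are of the other library set, which Lsd1het lacks. PS19 likewise had 0.944 and 0.805 in replicates 1 and 2, and higher values in the other set. The part of the library set in the Lsd1het difference was not tested. The ratio was 0.597, 0.729, 1.15 and 0.851 in PS19_Lsd1het, against 0.944, 0.805, 1.26 and 1.13 in PS19, with overlap. With the virus it was 179, 47.7 and 34.7 in PS19_rescue, against 1.06, 1.11 and 1.23 in PS19_HA and 1.16, 1.14 and 1.26 in WT_HA. The lowest PS19_rescue ratio was far above every other library.

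**Figure D2:**
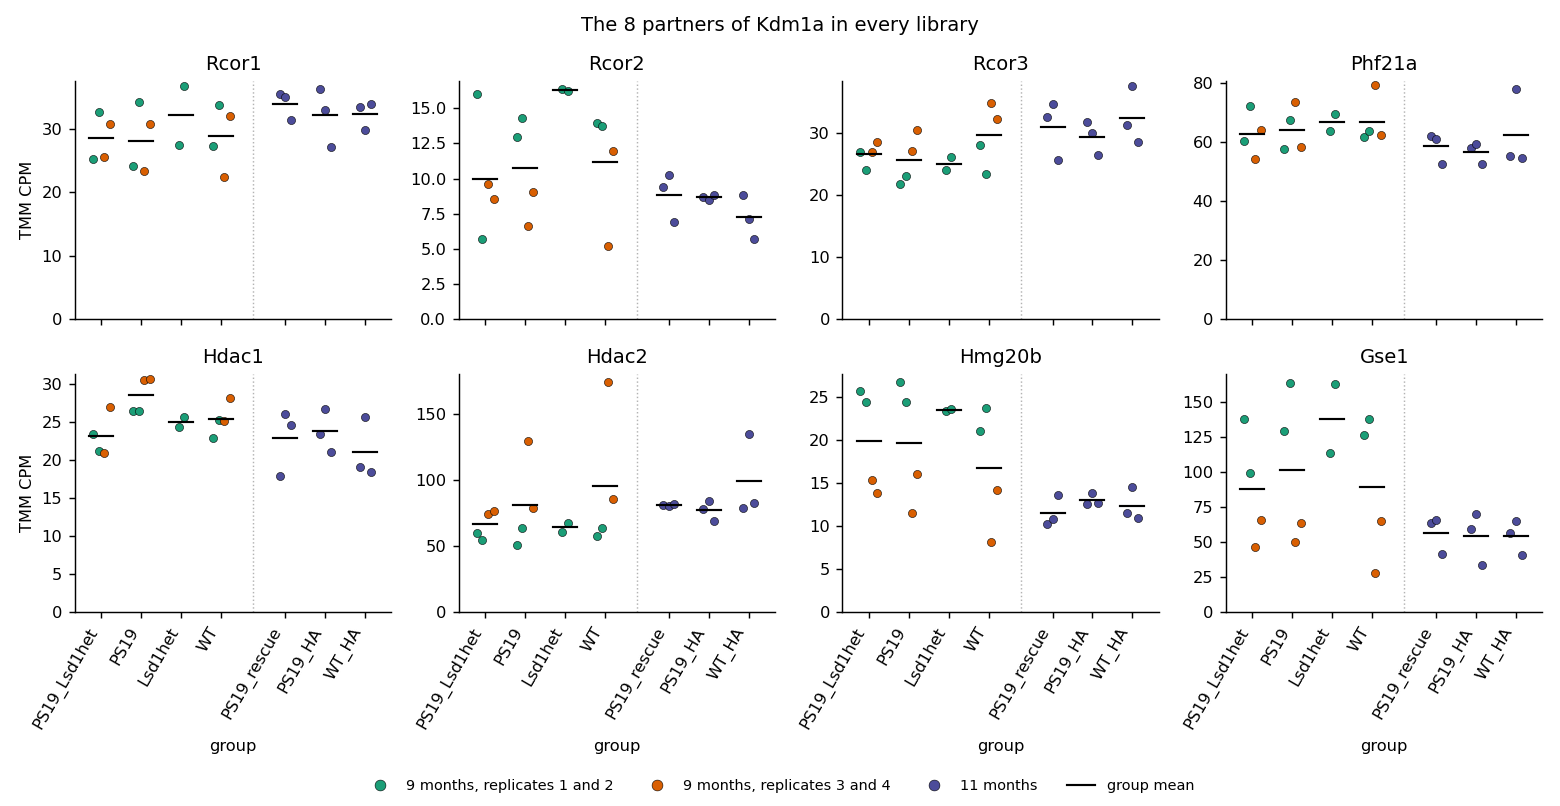
The 8 partners in every library, as TMM-scaled CPM on linear axes from 0, by group; colours and bars are as in the plot of Kdm1a. In the 7 pairs of groups compared, all overlap for every partner except Rcor2 between Lsd1het and WT, while green and orange points separate for Hdac2, Hmg20b and Gse1.

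The deacetylases differed in level and in steadiness. Per kilobase of exon, the 20 libraries without the LSD1 virus had a median of 16.9 for Hdac2 and 7.32 for Hdac1, the first being the highest of all 9 members. Hdac1 had 23.4, 21.2, 20.9 and 26.9 CPM in PS19_Lsd1het, against 26.4, 26.4, 30.5 and 30.7 CPM in PS19. The groups overlapped through PS19_Lsd1het replicate 4, and the difference was -0.30 (95% interval -0.64 to 0.03). Its unadjusted p of 0.0745 by edgeR (adjusted p = 1 by edgeR) was the lowest of any partner in any comparison. Without the transgene it was near 0, at -0.02 for Lsd1het against WT, and the interaction was -0.28 (95% interval -0.81 to 0.25).

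Hdac2 had 60.1, 54.7, 74.6 and 76.9 CPM in PS19_Lsd1het, 51.1, 63.7, 129.6 and 78.9 CPM in PS19, 61.0 and 67.5 CPM in Lsd1het, and 57.7, 63.4, 174.2 and 85.9 CPM in WT. The 2 highest values of the cohort were those of WT replicate 3 and PS19 replicate 3, and the highest of the 11-month libraries, 135.1 CPM, was that of WT_HA replicate 2. These are the 3 libraries with over 10% mitochondrial reads; their part in the Hdac2 values was not tested. The mean Lsd1 effect on Hdac2 was -0.42 (95% interval -1.04 to 0.19) and its sign turned to 0.04 in replicates 1 and 2 alone. Against WT_HA, the difference of PS19_rescue was -0.29 (95% interval -0.72 to 0.15) and it was 0.01 without WT_HA replicate 2. Between PS19_rescue (81.3, 80.2 and 81.8 CPM) and PS19_HA (78.1, 83.8 and 69.2 CPM) the difference was 0.07 (95% interval -0.36 to 0.51).

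The reader and the accessory subunits completed the set. Phf21a varied least, from 52.5 to 79.3 CPM over all 23 libraries, and its mean Lsd1 effect was -0.02 (95% interval -0.30 to 0.26). Hmg20b had 10.3, 10.9 and 13.5 CPM in PS19_rescue, against 12.5, 13.8 and 12.7 CPM in PS19_HA. With overlapping groups, its difference of -0.17 (95% interval -0.53 to 0.20) was the largest of any partner under the LSD1 virus. Gse1 had 63.4, 65.7 and 41.6 CPM in PS19_rescue and 59.2, 70.4 and 33.4 CPM in PS19_HA, also overlapping, with a difference of 0.07 (95% interval -0.59 to 0.72).

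The spread of the 8 partners differed from comparison to comparison. Between PS19_rescue and PS19_HA, 6 partners were higher and 2 lower, between -0.17 and 0.08, with a median of 0.06 beside -0.01 over all genes tested. For the mean Lsd1 effect, 4 were higher and 4 lower, between -0.42 and 0.25, with a median of 0.04 beside -0.01 over all genes. In that effect Hdac2 was at -0.42 (SE 0.28) and Kdm1a at -0.48 (SE 0.14). In replicates 1 and 2 alone Hdac2 was at 0.04, while Kdm1a differed there by -0.51 in log2 CPM. Lsd1het against WT, where Kdm1a was at -0.64, gave the partners -0.57 (Hdac2) to 0.63 (Gse1), with 4 higher and 4 lower. Lsd1het has replicates 1 and 2 only, and for Hdac2 and Gse1 the library sets differed without overlap. In replicates 1 and 2 alone this comparison gave 0.09 for Hdac2. Gse1 there had 113.8 and 162.6 CPM in Lsd1het, against 126.6 and 138.0 CPM in WT. PS19_Lsd1het against WT gave 1 higher and 7 lower, between -0.52 and 0.24, and PS19_Lsd1het against PS19 gave 3 higher and 5 lower, between -0.30 and 0.06. The interaction, which also holds Lsd1het, ran from -0.84 (Gse1) to 0.30 (Rcor3). PS19_rescue against WT_HA, with Kdm1a at 6.34, gave 4 higher and 4 lower, between -0.29 and 0.29. PS19 against WT gave 3 higher and 5 lower, between -0.24 and 0.23, and PS19_HA against WT_HA gave 4 higher and 4 lower, between -0.36 and 0.26. The tau effects at 11 months and at 9 months differed by -0.18 to 0.33 for the partners (lowest edgeR adjusted p = 1). Age, virus injection, sex and cohort differ together between the tau effects at 11 and at 9 months and cannot be told apart. The comparisons with WT share the WT libraries and those with WT_HA share the WT_HA libraries.

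**Figure D3:**
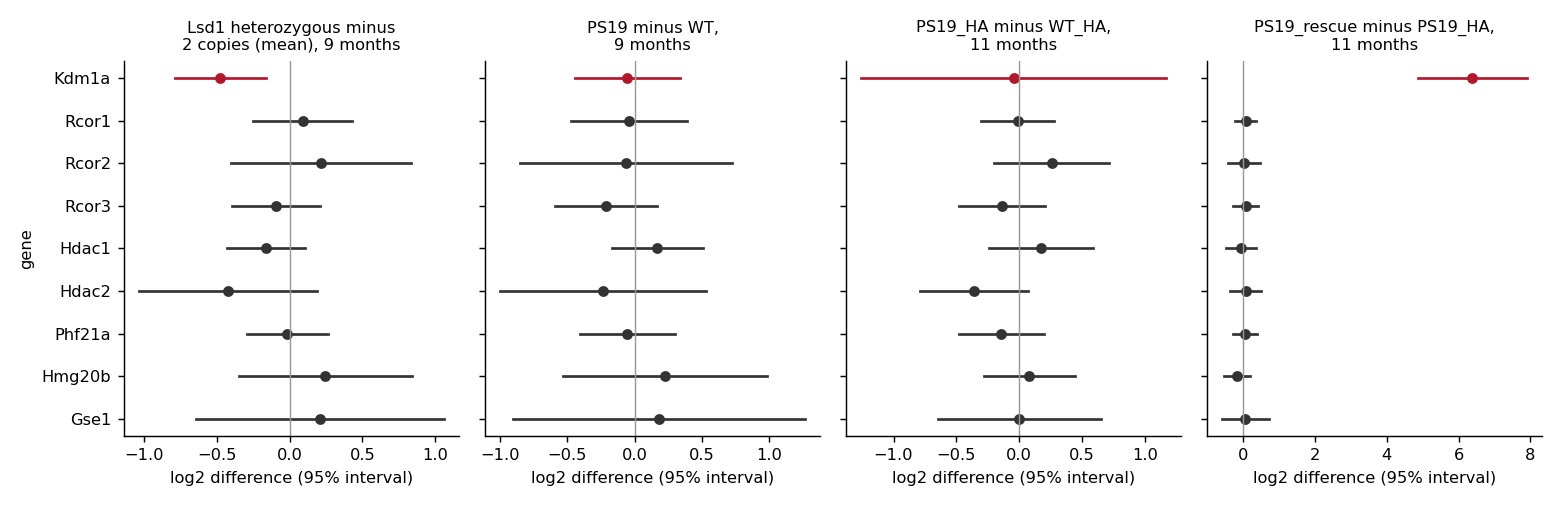
Log2 differences of the 9 members with 95% intervals from edgeR, in the mean Lsd1 heterozygosity effect, PS19 minus WT, PS19_HA minus WT_HA and PS19_rescue minus PS19_HA; Kdm1a is in red and the axes differ in scale. The partners' intervals include 0 in all 4 panels, and the Kdm1a intervals lie below 0 for the Lsd1 effect and above 4 for the virus.

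Within the PS19_rescue group, the partners did not spread as Kdm1a did. Against the 6.26-fold range of Kdm1a over these 3 libraries, Hdac2 spanned 1.02-fold, Rcor1 1.13-fold, Phf21a 1.18-fold, Hmg20b 1.32-fold, Rcor3 1.35-fold, Hdac1 1.46-fold, Rcor2 1.48-fold and Gse1 1.58-fold. PS19_rescue replicate 1, with the highest Kdm1a, had the lowest Hdac1 value of the group, 17.9 CPM, and middle or high values of the other partners apart from Hmg20b, which was lowest there too. With 3 libraries no relation was computed.

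Counts of members whose groups did not overlap are set against the share over all genes averaging 1 CPM or more. No member stood apart between PS19 and WT (background 1.35%), between PS19_Lsd1het and WT (4.42%), between PS19_Lsd1het and PS19 (0.445%) or between PS19_HA and WT_HA (13.4%). Kdm1a was the 1 member that stood apart between PS19_rescue and PS19_HA (7.02%) and between PS19_rescue and WT_HA (10.8%).

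By mean CPM, Kdm1a ran in the order PS19_rescue, WT_HA, PS19_HA, WT, PS19, PS19_Lsd1het and Lsd1het, and of these neighbours PS19_rescue and WT_HA alone had ranges that did not overlap. Among the partners, Rcor2 between Lsd1het (first) and WT (second) was the only neighbouring pair without overlap. Over the 20 libraries without the LSD1 virus, the highest value was 1.51 times the lowest for Phf21a, 1.64 times for Rcor1, 1.66 times for Hdac1, 1.73 times for Rcor3 and 1.88 times for Kdm1a. The other members spanned more: 3.16 times for Rcor2, 3.29 times for Hmg20b, 3.41 times for Hdac2 and 5.87 times for Gse1.

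For Gse1, Hmg20b and Hdac2 the library sets at 9 months differed without overlap. Gse1 had 99.6 to 163.4 CPM in replicates 1 and 2 of PS19_Lsd1het, PS19 and WT, and 27.9 to 66.1 CPM in their replicates 3 and 4. Hmg20b had 20.997 to 26.7 CPM in the first set and 8.12 to 16.0 CPM in the second. Hdac2 went the other way, with 51.1 to 63.7 CPM in the first set and 74.6 to 174.2 CPM in the second. The log2 differences of replicates 3 and 4 from 1 and 2 were -1.36 for Gse1, -0.91 for Hmg20b and 0.75 for Hdac2. The sets overlapped for the other 6, at -0.56 for Rcor2, -0.11 for Rcor1, 0.02 for Phf21a, 0.15 for Hdac1, 0.29 for Rcor3 and 0.31 for Kdm1a. The 11-month values of Gse1 and Hmg20b, 33.4 to 70.4 CPM and 10.3 to 14.5 CPM, lay near or within the range of the second set.

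The set differences moved with the base composition of the transcripts. Hdac2 (41.9% GC) and Rcor3 (43.2%) were higher in replicates 3 and 4, and Gse1 (57.1%), Rcor2 (61.6%) and Hmg20b (62.4%) were lower. Across 13941 protein-coding genes the Spearman correlation of the set difference with transcript GC was -0.845, a description across genes that share the same libraries. In 5 equal GC classes the median difference was 0.72 in the lowest and -1.02 in the highest. Kdm1a, at 51.7% GC, lay above the median of its class, -0.05. The origin of the sets is not given in the labels, and its part in the member values was not tested.

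**Figure D4:**
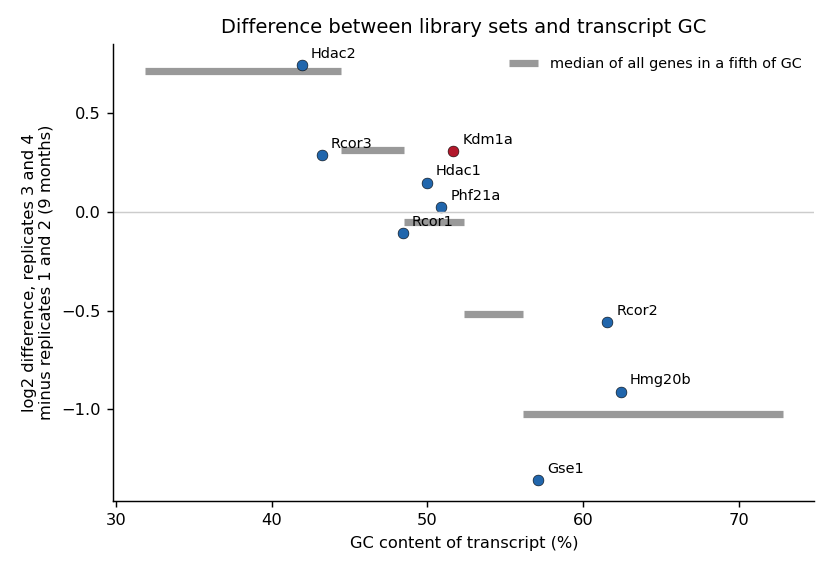
Log2 difference between replicates 3 and 4 and replicates 1 and 2 at 9 months (mean over PS19_Lsd1het, PS19 and WT) against the GC content of the transcript in percent, for the 9 members (points, Kdm1a in red) and as medians over all protein-coding genes in 5 equal GC classes (grey bars). The 2 members lowest in GC lie above 0 and the 3 highest below, from 0.75 for Hdac2 to -1.36 for Gse1.

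Likeness to Kdm1a across the 14 libraries at 9 months depended on whether the library sets were levelled first. After the mean of each library set was subtracted, the partners' Pearson correlations with Kdm1a on log2 CPM ran from -0.16 (Phf21a) to 0.22 (Hdac1), with Rcor1 at -0.07. Without that subtraction they were 0.55 for Hdac2, 0.51 for Rcor3, 0.43 for Hdac1, -0.11 for Phf21a, -0.26 for Rcor1, -0.34 for Rcor2, -0.60 for Gse1 and -0.64 for Hmg20b. The 5 genes most like Kdm1a among 16189, with the subtraction, were Tmod3 (0.81), Lrrc57 (0.71), Fnbp1l (0.70), Rab3b (0.68) and Vwc2l (0.68). The points share libraries, depth and set, so these values are a description. Without the subtraction the value was 0.10 for Tmod3, 0.85 for Lrrc57, 0.84 for Fnbp1l, 0.54 for Rab3b and 0.79 for Vwc2l.

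The wider network of the complex was followed in 6 lists holding 70 genes: other LSD1 partners and paralogues, DNA-binding recruiters such as REST, the NuRD and SIN3 deacetylase complexes, neuronal genes that REST represses, and stem cell factors. In the 10 comparisons, neither edgeR nor DESeq2 called any of them, and 12 of 647 values had an unadjusted edgeR p under 0.05. Under the LSD1 virus the list medians lay between -0.05 (SIN3) and 0.01 (REST-repressed genes) for PS19_rescue against PS19_HA, beside -0.01 over all genes. In that comparison 8 of 16 REST-repressed genes were higher and 8 lower. For the mean Lsd1 effect the same list again had 8 higher and 8 lower, with a median of 0.01, beside -0.01 over all genes. In that effect the 8 recruiters tested had 1 higher and 7 lower, with a median of -0.35, and none had an unadjusted edgeR p under 0.05. Its Lsd1het libraries are of replicates 1 and 2 only, and the part of the library set in these values was not tested.

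The REST-repressed list had most of its genes below 0 in both tau comparisons. It had 1 higher and 15 lower in PS19 against WT, with a median of -0.13 beside -0.02 over all genes, and 1 higher and 15 lower in PS19_HA against WT_HA, with a median of -0.22 beside 0.01. No gene of it passed the test in either. Marker sums of several cell types differed beside it. Neuron marker sums were lower, overlapping at 9 months and not at 11: the 10 markers summed to 3665.7 to 5082.3 CPM in PS19 and 4590.6 to 6237.1 CPM in WT, and to 3600.4 to 4281.0 CPM in PS19_HA and 4469.8 to 5407.7 CPM in WT_HA. The 10 microglia markers summed to 375.2 to 1175.4 CPM in PS19 and 299.1 to 341.9 CPM in WT, and to 326.6 to 738.6 CPM in PS19_HA and 283.3 to 334.5 CPM in WT_HA. The 8 oligodendrocyte markers were all higher in both comparisons, with none called, and summed to 5149.8 to 7032.6 CPM in PS19 and 3953.4 to 4906.1 CPM in WT, without overlap, and to 4541.2 to 6188.7 CPM in PS19_HA and 2557.2 to 4717.7 CPM in WT_HA. The 8 astrocyte markers summed to 5087.7 to 10992.7 CPM in PS19 and 4644.2 to 6407.0 CPM in WT, and to 6061.2 to 6858.3 CPM in PS19_HA and 4981.6 to 6661.3 CPM in WT_HA, overlapping in both. Of the microglia and astrocyte markers edgeR called none in either comparison. DESeq2 called C1qa (log2 difference 2.35, adjusted p = 0.0136), C1qb (1.96, 0.00294) and Gfap (2.56, 2.21e-05) higher in PS19 against WT. In PS19_HA against WT_HA it called 4 microglia markers and 1 astrocyte marker, all higher. The 6 choroid plexus markers were all higher in both comparisons, with medians of 0.79 in PS19 against WT and 2.61 in PS19_HA against WT_HA. The 6 striatum markers had 0 higher and 6 lower in PS19 against WT (median -1.38). In PS19_HA against WT_HA they had 1 higher and 5 lower (median -0.57). None of the choroid plexus and striatum markers was called in either comparison, and their sums overlapped between the groups. None of these markers was at 0 in all libraries, and their part in the list values was not tested. In PS19_rescue the neuron markers summed to 3747.5 to 4308.0 CPM and the microglia markers to 378.0 to 405.9 CPM, both overlapping PS19_HA.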

How the data were processed

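Gene counts came from 23 poly(A)-selected hippocampal libraries; groups and replicate numbers follow the sample titles. Per the submitters' processing notes, the tools were featureCounts 1.6.0.6 and HISAT2 2.1.0, with the build GRCm38; the notes name Trimmomatic 0.36.5, FastQC 0.11.7 and DESeq2 2.11.40.2 as well. Annotation release, strand setting, multi-mapping rule: not given in the sources used here. Whole-number counts per gene, without normalization, were deposited by the authors in 1 table per library. Symbols, coordinates, exon lengths and printed sequences came from GENCODE M21 (GRCm38), which matched 54079 of 54232 identifiers; the other 153 held 0.0547% of reads.

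Counts were tested with edgeR 4.0.16 (R 4.3.3): TMM factors over all 23 libraries, filterByExpr (minimum count 10, minimum total 15), robust quasi-likelihood fits of 14 libraries at 9 months (20339 genes), 9 at 11 months (19299 genes) and all 23 (21120 genes), and Benjamini-Hochberg adjustment over all genes tested, with calls at an adjusted p under 0.05. Intervals are 95%. DESeq2 1.42.0 was run on the same genes; where its adjusted p was undefined a gene stayed out of its counts. The edgeR code was also run on simulated counts with known changes and no library sets. Their spread was set below that of these libraries, whose biological coefficient of variation was 0.423 at 9 months and 0.242 at 11 months. That run therefore does not measure power or error rates in these data. Kdm1a CPM were compared by exact two-sided permutation tests, and log2 CPM used a prior count of 2. Replicate numbers were taken to pair libraries where all pairs of 3 or more correlated above 0.1 in their deviations from group means: PS19 with WT (0.541 to 0.878), PS19_Lsd1het with WT (0.341 to 0.59) and with PS19 (0.301 to 0.519), PS19_HA with WT_HA (0.149 to 0.348) and PS19_rescue with WT_HA (0.117 to 0.517). This pairing comes from the data, not the labels. For PS19_rescue with WT_HA, the pairs of replicates 1 and 3 join a male-type with a female-type library. Of 4 pairs each, the own number was the best match in 3 for PS19 with WT, 2 for PS19_Lsd1het with WT and 0 for PS19_Lsd1het with PS19. Of 3 pairs each, it was so in 3 for PS19_HA with WT_HA and 2 for PS19_rescue with WT_HA. At 9 months the rule cannot tell pairing by number from the split into 2 library sets. Alternatives covered scaling, filter, tool, covariates, library sets and leaving out libraries. No 2 libraries of a group agreed within sampling noise (lowest chi-square per gene 12.2).

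The members and gene lists were chosen with earlier results of these data known. All 9 members are named in every comparison; of other lists, up to 4 called genes per comparison were to be named, and the 5 genes most like Kdm1a by correlation, leaving out predicted genes and pseudogenes.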

Additional observations from a re-analysis of the deposited data

Results flagged for a closer look

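Of 27 sets of 4 libraries tested for a value far from the rest (9 members in 3 groups), 1 was singled out, where chance gives about 1.35. Phf21a had 79.3 CPM in WT replicate 3, far above the 61.9, 63.6 and 62.3 CPM of the other WT libraries. The same library had 33.9% mitochondrial reads, and the 2 other libraries with over 10% had the next highest Phf21a values, 77.9 CPM in WT_HA replicate 2 and 73.6 CPM in PS19 replicate 3. The part of mitochondrial content in these values was not tested.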

How the results depend on the processing

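Of 1665 member log2 differences under alternatives, 1649 kept their side of the test and their direction, or changed sign within 1 SE of 0 (158 of them); 9 lost a call, 3 gained one and 4 reversed. All 12 changes of call concern Kdm1a in PS19_rescue, and no partner was called in 1480 values (lowest adjusted p = 0.325). At 11 months only WT_HA replicate 2 has over 10% mitochondrial reads. Leaving out such libraries is there the same fit as leaving out WT_HA replicate 2, and these counts include that fit under both names. In the edgeR and DESeq2 fits, Kdm1a stayed below 0 in 77 of 77 alternatives for the Lsd1 genotype comparisons, between -0.67 and -0.18. Outside these fits, log2 CPM without TMM scaling put PS19_Lsd1het against WT at -0.16. For PS19_rescue against PS19_HA the number of members called was 1 with DESeq2, in place of 0 by edgeR; leaving out 1 library at a time it ran from 0 to 1, with Kdm1a called without PS19_rescue replicate 1 or 3 (edgeR adjusted p = 0.000202 and 0.00922). For PS19_rescue against WT_HA the 1 member called became 0 without a count filter (edgeR adjusted p = 0.52), with the replicate block (0.072) and with a sex covariate (0.0884). The count was also 0 with the 2 groups alone (0.183). It was 0 too without libraries over 10% mitochondrial reads, here WT_HA replicate 2 alone (0.551, chosen after seeing the data). The log2 differences of Kdm1a in these settings ran from 6.02 to 6.34. Leaving out 1 library it ran from 0 to 1, and was 0 without WT_HA replicate 1, 2 or 3 (adjusted p = 0.278, 0.551 and 0.25) or PS19_rescue replicate 2 (0.0746). The replicate block changed no other member's call, paired or not: Lsd1het with WT (correlations -0.00299 to 0.0753, 2 pairs) and PS19_rescue with PS19_HA (0.0656 to 0.28) share only numbers, and Kdm1a was -0.48 and 6.06 with the block there. Without PS19_Lsd1het replicate 3, Kdm1a was at -0.54 against WT and -0.48 against PS19 (exact permutation p = 0.0286 each, unadjusted, the smallest that 3 against 4 allows). Leaving out 1 library, these ran from -0.54 to -0.31 and from -0.48 to -0.25. The heterozygous deficit was -0.22 (exact permutation p = 0.133) in replicates 3 and 4 alone, a split tried after seeing the data. Hdac2 reversed to 0.0852 (Lsd1het against WT) and 0.0427 (mean Lsd1 effect) in replicates 1 and 2 only. For PS19_rescue against WT_HA it reversed to 0.00566 without WT_HA replicate 2, the same fit as without libraries over 10% mitochondrial reads. Leaving out 1 library it ran from -0.423 to 0.00566. The cause was not tested. Without division by exon length, Rcor3 to Rcor1 was 0.792 to 1.07 over group means, in place of 0.331 to 0.448. Over all genes, edgeR's count of calls ran under its alternatives from 0 to 144 for PS19 against WT (1 as reported, 189 by DESeq2), from 0 to 46 for PS19_Lsd1het against WT (1, 110 by DESeq2), from 0 to 8 for PS19_HA against WT_HA (3, 120 by DESeq2) and from 0 to 5 for PS19_rescue against WT_HA (4, 17 by DESeq2). The 144 came without PS19 replicate 2. Groups have 2 to 4 libraries, which limits precision.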
